A study of Mus musculus with 27 samples.

Results

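A set of 10 genes of the cellular defence against oxidants and metals was followed through osteoblast differentiation: the transcription factor gene Nfe2l2, the stress-response genes Hmox1, Nqo1, Gclc, Gclm, Txnrd1 and Srxn1, the extracellular peroxidase gene Gpx3, and the metallothionein genes Mt1 and Mt2. They were taken by name, 10 of the 37991 genes in the files, and all 10 were found and had counts above 0 in 27 of 27 profiles. The profiles came from C57BL/6J-Col3.6 CFP mice, which carry a cyan fluorescent protein (CFP) driven by Col3.6, a fragment of a type I collagen promoter. Calvarial cells of neonates 5 to 9 days old were cultured for 4 days, sorted for CFP, and returned to culture with ascorbic acid, beta-glycerol phosphate and 10% serum. RNA was collected on days 2, 4, 6, 8, 10, 12, 14, 16 and 18 and amplified before sequencing, with 3 profiles a day, all from the 1 strain and treatment. The promoter fragment marks cells of the osteoblast lineage from an early stage, so the sort does not isolate 1 cell state.

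The Nfe2l2 gene encodes Nrf2, which is held by Keap1 and degraded in unstressed cells. Oxidants and electrophiles free it to pair with small Maf proteins and bind antioxidant response elements in front of genes for glutathione synthesis, thioredoxin recycling, quinone reduction and haem breakdown, while Bach1 competes for such elements. Nrf2 activity is set largely at the level of the protein, so its mRNA does not report it. Metallothioneins are small cysteine-rich proteins that bind zinc and copper, and their genes respond to metals through the factor Mtf1 at metal response elements. In bone, oxidant levels are known to affect the maturation of osteoblasts and osteoclasts.

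The profiles of a day share 1 barcode across 3 sequencing lanes, so their counts were summed and each day was 1 library. The study describes the 3 profiles as triplicate samples, but nothing in the labels names separate cultures. Taken as 1 library, no day had a replicate, p-values measure the scatter of days around a fitted curve, and the SD over lanes covers sequencing and quantification only. The daily totals ran from 22470195 counts on day 10 to 62009157 on day 12. Levels are given in TPM, an abundance corrected for transcript length, after scaling each profile by its 75th percentile, and changes are fitted to the summed counts by edgeR. Markers of osteoblasts and of other cells changed over the same days, during which 28.3% of all genes tested rose. Of the monocyte and macrophage genes 6 of 7 rose, with a summed level of 24.1 to 61.7 TPM on days 2 to 6, 68.1 to 451 on days 8 to 12 and 522 to 2014 on days 14 to 18. All 5 adipocyte genes rose (3.21 to 7.44, 6.51 to 103, and 188 to 407 TPM), as did 3 of 6 osteoclast genes (37.6 to 86, 99 to 182, and 208 to 217 TPM, with Calcr at 0 counts). Of the osteoblast genes 7 of 10 rose (3001 to 5280, 6026 to 8459, and 7644 to 9330 TPM), while Sp7, Alpl and Spp1 did not pass as a straight line in day. Sp7 was at 32.3, 5.18 and 10.6 TPM on days 2, 4 and 18, and Alpl at 9.13, 0.857 and 17.6. Spp1 was at 402 TPM on day 2, 1012 on day 6 and 532 on day 18. Fitted with a curve that can turn within the course, all 3 passed (edgeR spline, adjusted p = 1.16e-05, 0.00742 and 0.000421). Only 1 or 2 genes made up most of some sums. Lyz2 of the macrophage list was at 19.9 TPM on day 2 and 1855 on day 18, and Ctsk of the osteoclast list at 36.5 and 193. In the osteoblast list Col1a1 was at 1526 and 4263 TPM on these days and Col1a2 at 983 and 4114, so its sum mostly follows these 2 collagen genes. Endothelial genes summed to at most 12.1 TPM on any day, erythroid genes to at most 1.93, and mast cell genes to at most 1.76, with Mcpt4 and Fcer1a at 0 counts. In bulk RNA fewer cells of a type and less RNA per cell cannot be told apart, and the part of these cells in the results below was not tested.

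Of the 10 genes, 9 changed over the course. With a straight line in day, Hmox1, Nqo1, Gclc, Gclm, Txnrd1 and Srxn1 fell, Gpx3, Mt1 and Mt2 rose, and Nfe2l2 did not pass the test (edgeR quasi-likelihood test, adjusted p under 0.05 over 15659 genes). Of all genes tested, 28.3% rose and 26.1% fell by the same rule, so that a change as such was common in this series, and the 6 of 10 that fell and the 3 of 10 that rose are to be read against those shares. The 10 genes were chosen with earlier results of these data known, so any excess over the shares is a description only. The median fitted change was -1.05 on the log2 scale over the 10 genes and 0.05 over all genes tested. A natural spline in day, which also finds genes that turn within the course, called the same 9 of 10 genes, beside 57.5% of 16256 genes.

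**Figure D1:**
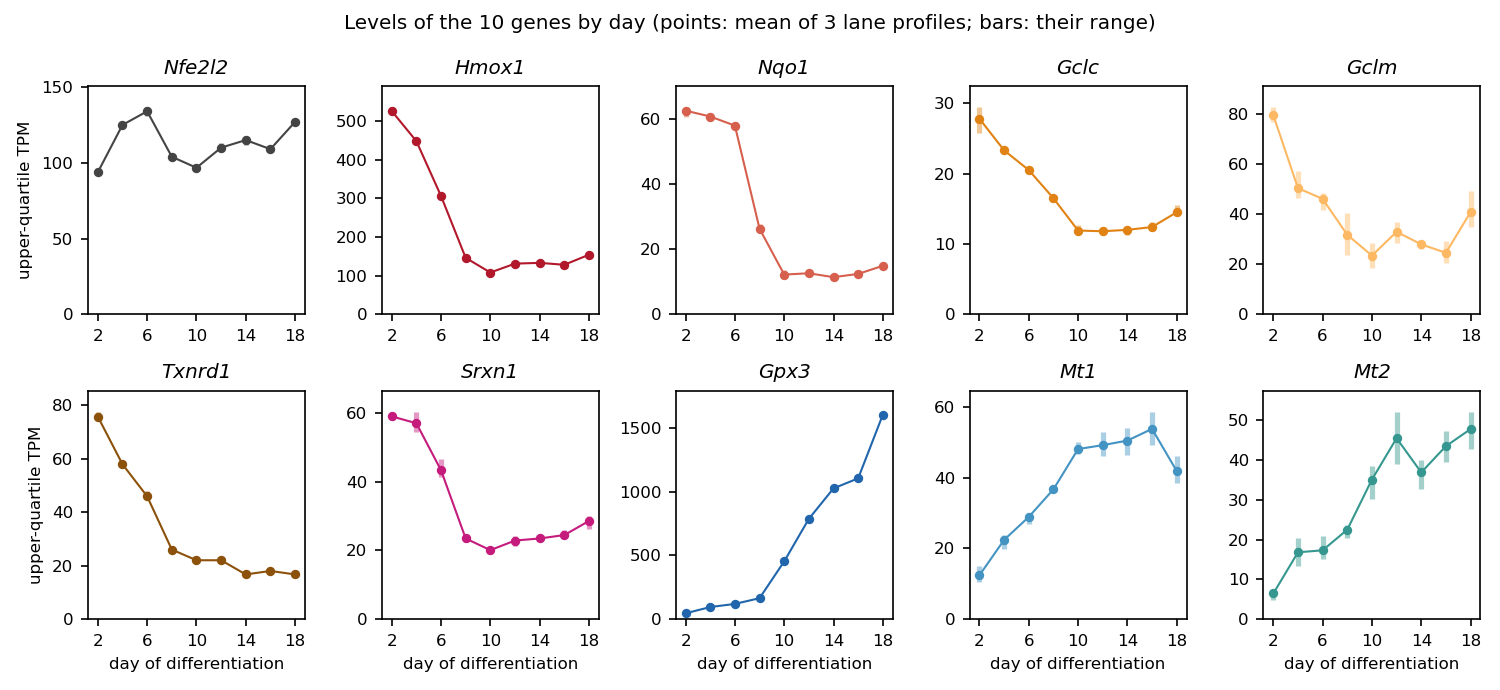
Level of each of the 10 genes (vertical axes, upper-quartile TPM, each from 0) against day of differentiation (horizontal axes). Points are means of the 3 lane profiles of a day and bars their range. Hmox1 runs from 526 TPM on day 2 to 108 on day 10 and Gpx3 from 45.3 on day 2 to 1604 on day 18, while Nfe2l2 stays between 93.8 and 134.

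Nfe2l2 (ENSMUSG00000015839, NCBIM37 chromosome 2, 75513570 to 75542698, minus strand) encodes the factor itself. Its level was 93.8, 125 and 134 TPM on days 2, 4 and 6, 104, 96.7 and 110 on days 8, 10 and 12, and 115, 109 and 127 on days 14, 16 and 18. Day 2 was the lowest and day 6 the highest, a range of 1.43-fold, and the 3 stages overlapped. The fitted change from day 2 to day 18 was 0.01 ± 0.16 (SE) on the log2 scale with an adjusted p of 0.976 by edgeR, and its sign varied with the scaling, which leaves no direction to report. The spline gave an adjusted p of 0.276 (edgeR). At a mean of 113 TPM, Nfe2l2 was at percentile 95.9 of the genes above 0.

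Hmox1 (ENSMUSG00000005413, chromosome 8, 77617490 to 77624495, plus strand) encodes the inducible haem oxygenase, which opens haem to biliverdin, iron and carbon monoxide. It was the highest of the 10 genes on day 2, with 526, 448 and 306 TPM on days 2, 4 and 6. The level was 146, 108 and 131 TPM on days 8, 10 and 12 and 133, 128 and 154 TPM on days 14, 16 and 18. The days up to 6 lay above every later day, and the middle and late days overlapped. Hmox1 fell by 2.09 ± 0.42 (SE) on the log2 scale over the course (edgeR, adjusted p = 0.00181). The step from day 6 to day 8, -1.03 on the log2 scale, was the largest between neighbouring days and lay below the 5th percentile of all genes for those days, -0.8. Its constitutive relative Hmox2 rose from 18.6 to 35.4 TPM (log2 change 0.8 ± 0.15, edgeR, adjusted p = 0.00148), and Hmox1 was 28.3 times the level of Hmox2 on day 2 and 4.34 times on day 18.

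Nqo1 (ENSMUSG00000003849, chromosome 8, 109912125 to 109927106, minus strand) encodes a quinone reductase that is a classic readout of Nrf2. Its level was 62.6, 60.8 and 58 TPM on days 2, 4 and 6, then 26.3 on day 8, and 12.2, 12.6, 11.4, 12.4 and 14.9 on days 10, 12, 14, 16 and 18. It held a plateau through day 6 and a lower plateau from day 10, with day 8 between them, and no day up to 6 overlapped a later one. The line gave a fall of 2.83 ± 0.46 on the log2 scale (edgeR, adjusted p = 0.000575), the largest fitted size among the 6 genes that fell. In TPM, day 2 was 4.21 times day 18 for Nqo1 and 4.52 times for Txnrd1, so the order depends on the measure. The largest steps of Nqo1 were of similar size, -1.1 from day 6 to day 8 and -1.06 from day 8 to day 10. The depth of day 10, 234 Nqo1 counts, gave 10.4 CPM (counts scaled to the library total) with a 95% Wilson interval of 9.16 to 11.8. Such intervals describe counting error alone, as does the floor of 3 counts used further on.

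The enzyme that sets the pace of glutathione synthesis is made of a catalytic subunit, Gclc (ENSMUSG00000032350, chromosome 9, 77602342 to 77642292, plus strand), and a modifier subunit, Gclm (ENSMUSG00000028124, chromosome 3, 121948475 to 121972902, plus strand). Gclc was at 27.8, 23.3 and 20.5 TPM on days 2, 4 and 6, at 16.5, 11.9 and 11.8 on days 8, 10 and 12, and at 12, 12.4 and 14.5 on days 14, 16 and 18. Gclm was at 79.7, 50.5 and 46.2 TPM, at 31.8, 23.5 and 33, and at 28, 24.6 and 40.9 over the same days. Both were highest on day 2, both had the means of days 2 to 6 above those of every later day, and both were higher on day 18 than on day 16. The Gclm lanes of day 6 (41.9 to 48.5 TPM) and day 18 (34.9 to 49.5 TPM) overlapped. Gclc fell by 1.21 ± 0.24 (edgeR, adjusted p = 0.00179) and Gclm by 0.88 ± 0.28 (edgeR, adjusted p = 0.0204) on the log2 scale. Without day 2 the change of Gclm was -0.5 with an edgeR adjusted p of 0.163, so its call as a line rests on that library. Gclm was also the 1 gene of the 10 whose counts were not whole numbers (within 0.005) in every profile, which means that reads it shares with other transcripts were divided, and its lanes differed by up to 26.5% (coefficient of variation), beside 7.1% for Gclc. Per length, Gclm was between 1.93 and 2.86 times the level of Gclc on every day.

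The 250 bases in front of the Gclm start are shown because this window holds, on the minus strand, the core of an antioxidant response element (TGACNNNGC) at bases -134 to -126 from the start, overlapping a metal response element core (TGCGCNC) at -138 to -132, with another such core at -72 to -66. Capitals mark the matches, the sequence is from the RefSeq promoter table of GRCm38.p6, and its place, chr3:121948225-121948474, is from an exact match to NCBIM37.
Gclm: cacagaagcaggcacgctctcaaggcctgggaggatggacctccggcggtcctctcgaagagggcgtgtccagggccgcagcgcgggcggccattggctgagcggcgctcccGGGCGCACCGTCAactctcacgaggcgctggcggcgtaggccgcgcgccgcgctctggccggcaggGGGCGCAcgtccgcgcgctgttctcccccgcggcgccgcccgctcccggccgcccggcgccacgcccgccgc

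Of 32851 promoter windows of this length, 10.2% hold TGACNNNGC on either strand, 12.5% hold TGCGCNC, 10.4% hold TGCACNC and 4.46% hold the AP-1 element TGACTCA. Windows were at hand for 8 of the 10 genes, not for Hmox1 or Gclc, and a match is a description of the letters and not of binding. The windows of Nqo1 and Gpx3 and those of the other 2 Txnrd1 starts had 0 matches to these 4 motifs, and that of Nfe2l2 had TGACTCCGC at -240 to -232 from its start. The Gpx3 window, chr11:54716106-54716355, lies within the annotated gene and overlaps a Gpx3 exon. It does not cover the bases before the annotated Gpx3 start. Elements further upstream of any window were not searched, so 0 matches do not mean that a gene lacks them.

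Txnrd1 (ENSMUSG00000020250, chromosome 10, 82296696 to 82360469, plus strand) encodes the cytosolic thioredoxin reductase, and Srxn1 (ENSMUSG00000032802, chromosome 2, 151931252 to 151937112, plus strand) encodes sulfiredoxin, which restores over-oxidised peroxiredoxins. Txnrd1 was at 75.7, 57.9 and 45.9 TPM on days 2, 4 and 6, at 26, 22 and 22 on days 8, 10 and 12, and at 16.7, 18 and 16.7 on days 14, 16 and 18. Srxn1 was at 59.1, 57.1 and 43.4 TPM, at 23.5, 20.1 and 22.9, and at 23.5, 24.5 and 28.6 over the same days. In TPM the 3 stages did not overlap for either gene, by less than the rounding between the middle and late days of Srxn1. On the count scale these Srxn1 stages did overlap, with log2 differences from day 2 of -1.38 on day 8, -1.43 on day 14 and -1.41 on day 16. Txnrd1 was lowest late and Srxn1 was lowest on day 10. Txnrd1 fell by 2.36 ± 0.25 (edgeR, adjusted p = 6.11e-05) and Srxn1 by 1.38 ± 0.34 (edgeR, adjusted p = 0.00578) on the log2 scale. Txnrd1 was the only one of the 6 genes that did not step up from day 16 to day 18 (-0.09 on the log2 scale, the others 0.2 to 0.3).

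1 of the 3 Txnrd1 starts (chr10:82321701-82321950, GRCm38.p6 table, placed in NCBIM37) and the Srxn1 window (chr2:151931010-151931251, cut before the annotated first exon) are shown because they hold matches of different kinds. Capitals mark an antioxidant response element core on the minus strand in Txnrd1, at -92 to -84 from that start, and in Srxn1 a pair of AP-1 elements on the minus strand, at -102 to -96 and -45 to -39, with 1 metal response element core (TGCGCNC, minus strand) at -19 to -13. Only the TGACNNNGC form of the antioxidant core was searched. The Srxn1 site at -45 to -39 reads TGAGTCAGC with the bases after it, which that form does not cover. The lack of a marked antioxidant core in Srxn1 thus holds for that form alone.
Txnrd1: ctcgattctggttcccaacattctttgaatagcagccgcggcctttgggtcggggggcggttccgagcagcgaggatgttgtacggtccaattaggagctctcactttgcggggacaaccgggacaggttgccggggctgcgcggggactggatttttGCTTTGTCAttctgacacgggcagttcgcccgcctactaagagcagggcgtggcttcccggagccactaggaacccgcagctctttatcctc
Srxn1: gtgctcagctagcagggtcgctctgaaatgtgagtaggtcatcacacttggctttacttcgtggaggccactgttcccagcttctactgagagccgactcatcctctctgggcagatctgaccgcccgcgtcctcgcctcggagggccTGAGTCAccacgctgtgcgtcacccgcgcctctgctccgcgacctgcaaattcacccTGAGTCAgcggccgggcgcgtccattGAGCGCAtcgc

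Gpx3 (ENSMUSG00000018339, chromosome 11, 54715955 to 54723879, plus strand) encodes the secreted glutathione peroxidase of plasma and extracellular fluid. Its level was 45.3, 94.5 and 119 TPM on days 2, 4 and 6, 164, 453 and 787 on days 8, 10 and 12, and 1026, 1105 and 1604 on days 14, 16 and 18. Every day was higher than the day before it, the 3 stages did not overlap, and day 18 was 35.4 times day 2. The fitted rise was 5.23 ± 0.39 on the log2 scale (edgeR, adjusted p = 1.26e-05), and the step of 1.52 from day 8 to day 10 lay above the 95th percentile of all genes for those days, 1.3. Gpx3 ranked 7 of the 10 genes on day 2 and 1 on day 18, ahead of Hmox1 at 154 TPM. Among the 5 glutathione peroxidase genes with a mean of at least 5 TPM, Gpx3 made up 6.02%, 21.5%, 53.2% and 70.3% of the summed TPM on days 2, 8, 12 and 18, and the summed level itself was 752 TPM on day 2 and 2282 on day 18. Gpx1, the cytosolic enzyme, went the other way, from 44.8% to 8.83% of the sum, with a log2 change of -0.88 ± 0.17 (edgeR, adjusted p = 0.0013). Over the same days Lyz2, the highest of the macrophage markers, went from 19.9 to 1855 TPM and the adipocyte marker Fabp4 from 1.92 to 198, and their part in the rise of Gpx3 was not tested.

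**Figure D2:**
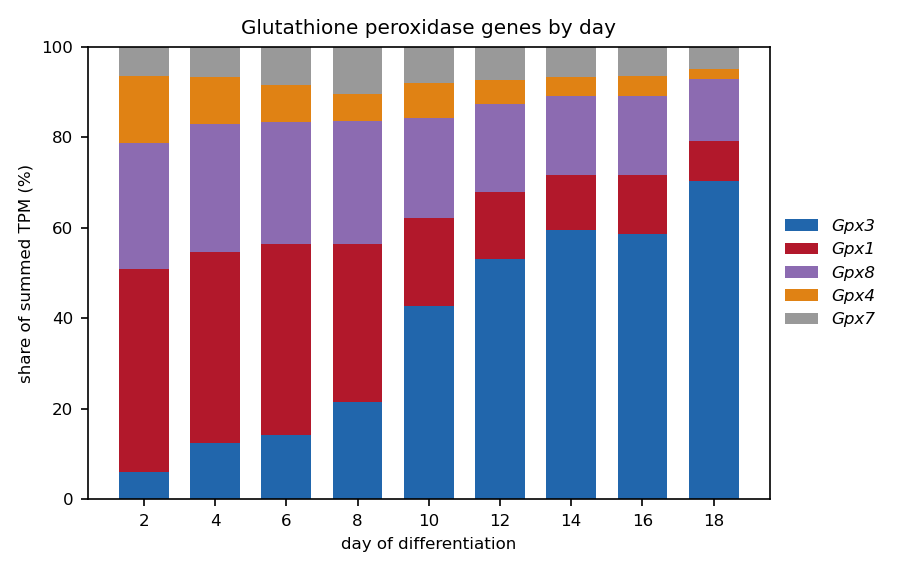
Share of the summed upper-quartile TPM of 5 glutathione peroxidase genes (vertical axis, percent) on each day of differentiation (horizontal axis). Each bar is 1 day, split by gene. The Gpx3 part grows from 6.02% on day 2 to 70.3% on day 18 as the Gpx1 part goes from 44.8% to 8.83%.

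Mt1 (ENSMUSG00000031765, 96702989 to 96704225) and Mt2 (ENSMUSG00000031762, 96696518 to 96697467) lie side by side on the plus strand of chromosome 8, with 6471 bases between their starts. Mt1 was at 12.4, 22.4 and 28.9 TPM on days 2, 4 and 6, at 36.7, 48.1 and 49.2 on days 8, 10 and 12, and at 50.5, 53.8 and 41.9 on days 14, 16 and 18. Mt2 was at 6.44, 16.8 and 17.3 TPM, at 22.5, 35.1 and 45.5, and at 36.9, 43.5 and 47.8 over the same days. For both, day 2 was lowest and the means of days 2 to 6 lay below those of every later day, while the middle and late days overlapped. The Mt2 lanes of day 6 (15.1 to 20.8 TPM) and day 8 (20.5 to 23.6 TPM) overlapped. Mt1 rose by 1.58 ± 0.4 (edgeR, adjusted p = 0.00683) and Mt2 by 2.31 ± 0.41 (edgeR, adjusted p = 0.000911) on the log2 scale. Mt2 was at 0.52 times the level of Mt1 on day 2 and at 1.14 times on day 18, when their lanes overlapped (42.9 to 52.1 TPM for Mt2, 38.4 to 46 for Mt1). The transcripts are short, with effective lengths of 262 and 277 bases, so these levels rest on few counts: 94 for Mt1 and 52 for Mt2 on day 2, the latter 1.23 CPM with a 95% Wilson interval of 0.938 to 1.61. On day 18 Mt2 had 356 counts, 8.01 CPM with an interval of 7.22 to 8.88. The neural metallothionein gene Mt3 and the epithelial Mt4 had 0 counts in all profiles, where 3 counts would have been 0.0484 to 0.134 CPM.

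The 250 bases before the Mt2 start (chr8:96696268-96696517) and the Mt1 start (chr8:96702739-96702988), again from the GRCm38.p6 table and placed in NCBIM37, are shown for their metal response element cores. Capitals mark, in Mt2, TGCACNC at -223 to -217 from the start and on the minus strand at -50 to -44, TGCGCNC at -128 to -122, and TGACTCAGC at -79 to -71, where the antioxidant core and the AP-1 element overlap. In Mt1 they mark TGCACNC at -23 to -17, the 1 match in that window. Only the 250 bases before each start of the promoter table were searched. Elements past a start or further upstream are not counted, so the matches do not rank the 2 promoters.
Mt2: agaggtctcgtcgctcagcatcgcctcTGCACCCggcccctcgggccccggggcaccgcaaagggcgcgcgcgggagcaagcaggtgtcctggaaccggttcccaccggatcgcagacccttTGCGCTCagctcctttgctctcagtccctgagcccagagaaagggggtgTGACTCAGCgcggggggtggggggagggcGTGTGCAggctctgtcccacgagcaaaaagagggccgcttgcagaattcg
Mt1: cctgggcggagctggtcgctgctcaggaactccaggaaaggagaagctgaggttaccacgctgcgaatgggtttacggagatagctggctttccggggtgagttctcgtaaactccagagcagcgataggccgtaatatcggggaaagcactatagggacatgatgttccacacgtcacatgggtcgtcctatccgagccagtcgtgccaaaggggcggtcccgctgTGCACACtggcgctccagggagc

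Changes were also tested between stages of the course. Between days 2 to 6 and days 8 to 12, with 3 days a stage, the same 6 genes fell and the same 3 rose (edgeR, adjusted p from 0.00412 to 0.0208), beside 13.6% of all genes that fell and 17.3% that rose. On the log2 scale the stage differences were -1.76 for Hmox1, -1.84 for Nqo1, -0.85 for Gclc, -0.85 for Gclm, -1.38 for Txnrd1, -1.28 for Srxn1, 2.42 for Gpx3, 1.07 for Mt1 and 1.34 for Mt2. Without day 10 or without day 12, Mt1 and Mt2 did not pass, with adjusted p of 0.0651 and 0.0574 for Mt1 and of 0.068 and 0.0815 for Mt2 (edgeR), and Mt1 did not pass without day 4 either (edgeR, adjusted p = 0.0519). Between days 8 to 12 and days 14 to 18, 0 of 15659 genes passed in either direction (0.0%, edgeR, lowest adjusted p = 0.199), although 16.3% had an unadjusted p under 0.05, Gpx3 and Txnrd1 among them. Gpx3 differed by 1.39 ± 0.49 (edgeR, adjusted p = 0.23) and Txnrd1 by -0.49 ± 0.19 (edgeR, adjusted p = 0.25) between these stages.

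Of the difference between day 2 and the mean of days 14 to 18 on the log2 CPM scale, 42.8% was reached by day 6 and 93% by day 8 for Hmox1, 39.7% and 104% for Srxn1, and 66.1% and 99.7% for Gclm. Nqo1 came later, with 8.51% by day 6, 54.3% by day 8 and 98.2% by day 10. Gclc had reached 66.3% by day 8 and 100% by day 10, and Mt1 82.2% and 106%. Mt2 had covered 50% by day 4 and 93.8% by day 10. Txnrd1 had reached 78.7% and Gpx3 71.7% by day 10. By this measure Hmox1, Srxn1 and Gclm were near their late values by day 8. Nqo1, Gclc, Mt1 and Mt2 were near theirs by day 10, and Txnrd1 and Gpx3 were still moving then.

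**Figure D3:**
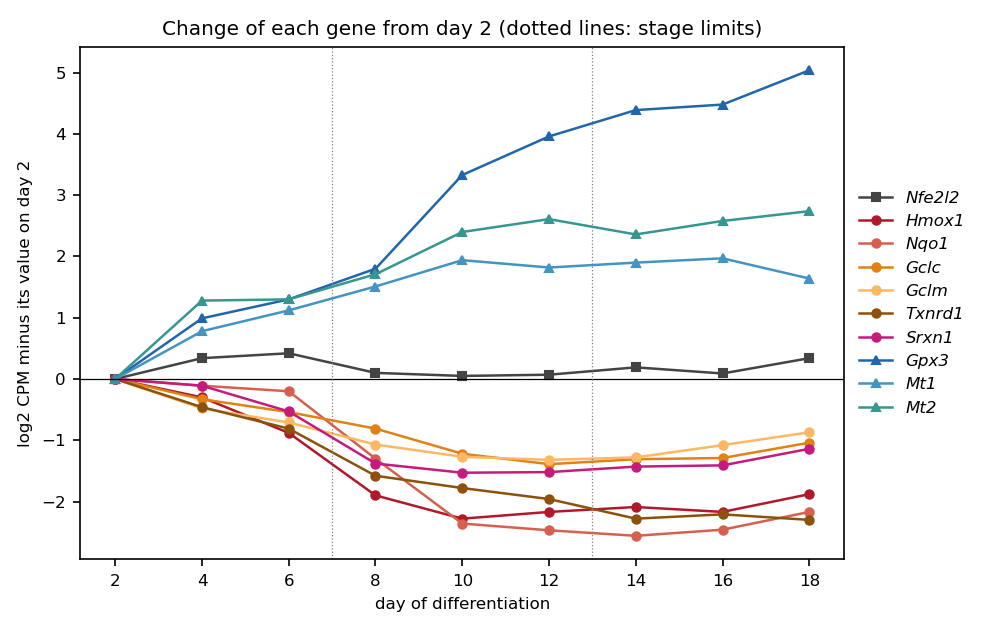
Difference of each gene from its own day 2 value (vertical axis, log2 CPM) against day of differentiation (horizontal axis). Each line is 1 gene, with circles for genes that fell, triangles for genes that rose and squares for Nfe2l2, and dotted lines part the 3 stages. On day 18 Gpx3 stands at 5.04 and Mt2 at 2.74 above day 2, and Nqo1 at -2.17.

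Across the 9 days the 6 genes that fell had Pearson r between 0.87 and 0.99 in the 15 pairs of log2 CPM, and the 3 that rose had r between 0.87 and 0.95. Genes that fell against genes that rose gave r of -0.97 to -0.77. Nfe2l2 had r of -0.06 to 0.32 with the other 9. These values are descriptions over 9 libraries that share a trend in day: among 7619 genes with a mean of at least 10 TPM, between 362 (Gclm) and 1551 (Txnrd1) had r above 0.9 with a given gene that changed, and 1 had so with Nfe2l2. The nearest gene in pattern to Srxn1 was Hmox1 (r = 0.994), followed by Pgd (r = 0.993), a pentose phosphate enzyme that makes NADPH. The genes nearest to the others were Esd for Hmox1, Got1 for Nqo1, Rexo2 for Gclc, Pitpna for Gclm, Lars for Txnrd1, Pik3r1 for Gpx3, Usp46 for Mt1 and Ypel2 for Mt2, with r of 0.992 to 0.999, and AL606976.2 for Nfe2l2 with r of 0.903.

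Among the genes that control or partner Nrf2, 4 of 12 rose (33.3%) and 3 fell (25%), near the 28.3% and 26.1% of all genes tested, and the median log2 change was 0.26. All 3 small Maf genes fell, Maff most, from 50.4 TPM on day 2 to 10.2 on day 6, 2.98 on day 10 and 2.8 on day 18 (log2 change -4.07 ± 0.59, edgeR, adjusted p = 0.000315). Mafk changed by -2.05 and Mafg by -0.74. Bach1, the competing repressor, rose from 14.3 to 29.6 TPM (0.89 ± 0.17, edgeR, adjusted p = 0.00128), and Nfe2l1, a relative of Nrf2 that controls proteasome genes, rose from 125 to 224 TPM (0.77 ± 0.1, edgeR, adjusted p = 0.000223). Keap1, at 4.92 TPM on day 2 and 7.52 on day 18, did not pass (edgeR, adjusted p = 0.0595).

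Of the glutathione synthesis, transport and recycling genes, 4 of 12 tested fell (33.3%) and 2 rose (16.7%), with a median of -0.43. Of all genes tested 26.1% fell and 28.3% rose, and the lists that follow are to be read against these shares. The exporter gene Abcc1 went from 76.3 to 23.5 TPM (-2.24 ± 0.4, edgeR, adjusted p = 0.00101), Slc3a2, a subunit of the cystine transporter, was at 57.2 and 58.1 TPM, and Glrx2, a mitochondrial glutaredoxin, rose by 0.53 on the count scale although its level per length was 54.2 TPM on day 2 and 45.6 on day 18. The glutathione S-transferases, which join glutathione to electrophiles, had 14 of 19 tested genes that rose (73.7%) and 2 that fell (10.5%), with a median of 1.77. Gstm1 went from 139 to 888 TPM (2.18 ± 0.2, edgeR, adjusted p = 3.6e-05) and Gstt1 from 4.22 to 64.1 (4.26 ± 0.53, edgeR, adjusted p = 0.000132), whereas Gsto1 went from 77.5 to 34.6 TPM (-1.98 ± 0.35, edgeR, adjusted p = 0.000888). Several Gstm genes are close copies whose shared reads were divided, so the split between them is uncertain. Of the other glutathione peroxidases, Gpx7 and Gpx8 rose, Gpx1 fell, Gpx4 did not pass on the count scale (log2 change 0.02) although its level per length was 111 TPM on day 2 and 50.2 on day 18, and Gpx5 and Gpx6 had 0 counts. The thioredoxin and peroxiredoxin genes were mixed, with 6 of 14 lower (42.9%) and 4 higher (28.6%). Txn1, the substrate of Txnrd1, went from 538 to 138 TPM (-2.07 ± 0.26, edgeR, adjusted p = 0.000134), Prdx1 fell by 0.76 on the log2 scale, and Sesn1, a sestrin, rose from 7.29 to 36.7 TPM (2.5 ± 0.37, edgeR, adjusted p = 0.000329).

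Of the 4 superoxide dismutase and catalase genes, 2 rose (50%) and 0 fell, beside 28.3% and 26.1% of all genes tested. Sod3, which like Gpx3 encodes a secreted enzyme, rose from 2.66 to 77 TPM (3.7 ± 0.54, edgeR, adjusted p = 0.000302), and Sod1 was at 675 and 734 TPM with a log2 change of 0.08 that did not pass. The genes that supply NADPH had 4 of 8 lower (50%) and 2 higher (25%), with Pgd at 191 and 109 TPM (-1.21 ± 0.3, edgeR, adjusted p = 0.00608) and Idh2 at 21.8 and 34.6 (0.99 ± 0.26, edgeR, adjusted p = 0.00767). Of the haem and iron genes, 5 of 10 rose (50%) and 2 fell (20%). Alas1, which starts haem synthesis, went from 92.5 to 22.2 TPM (-2.97 ± 0.4, edgeR, adjusted p = 0.000217), Trf (transferrin) from 0.564 to 98.4 TPM (6.89 ± 0.61, edgeR, adjusted p = 2.66e-05), and Ftl1, the ferritin light chain, from 8913 to 5873 TPM (-0.8 ± 0.25, edgeR, adjusted p = 0.0186).

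Quinone, aldehyde and xenobiotic enzymes had 6 of 15 higher (40%) and 4 lower (26.7%), beside 28.3% and 26.1% of all genes tested. They were led by Aldh1a1, a retinaldehyde dehydrogenase (6.18 to 64.5 TPM, 3.13 ± 0.26, edgeR, adjusted p = 2.09e-05), and by Akr1b8, an aldose reductase relative (56.7 to 38.1 TPM, -1.31 ± 0.31, edgeR, adjusted p = 0.00457). Cyp1b1 was the highest of them on average and did not pass. Of the metallothionein and zinc handling genes beside Mt1 and Mt2, 7 of 14 tested fell (50%), 2 rose (14.3%) and 5 did not pass, beside 26.1% and 28.3% of all genes tested, with a median of -0.35. The importer Slc39a14 went from 45.8 to 16.2 TPM (-1.88 ± 0.24, edgeR, adjusted p = 0.000164) and Slc39a1 from 47.1 to 70.5 (0.39 ± 0.12, edgeR, adjusted p = 0.0149), while Slc39a13 was at 124 and 123 TPM and the metal sensor Mtf1 at 13.1 and 12.2 TPM without passing. Over all 10 lists, 43 of 112 tested genes rose (38.4%) and 33 fell (29.5%), beside 28.3% and 26.1% of all genes tested, so the share that fell was near that of all genes.

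**Figure D4:**
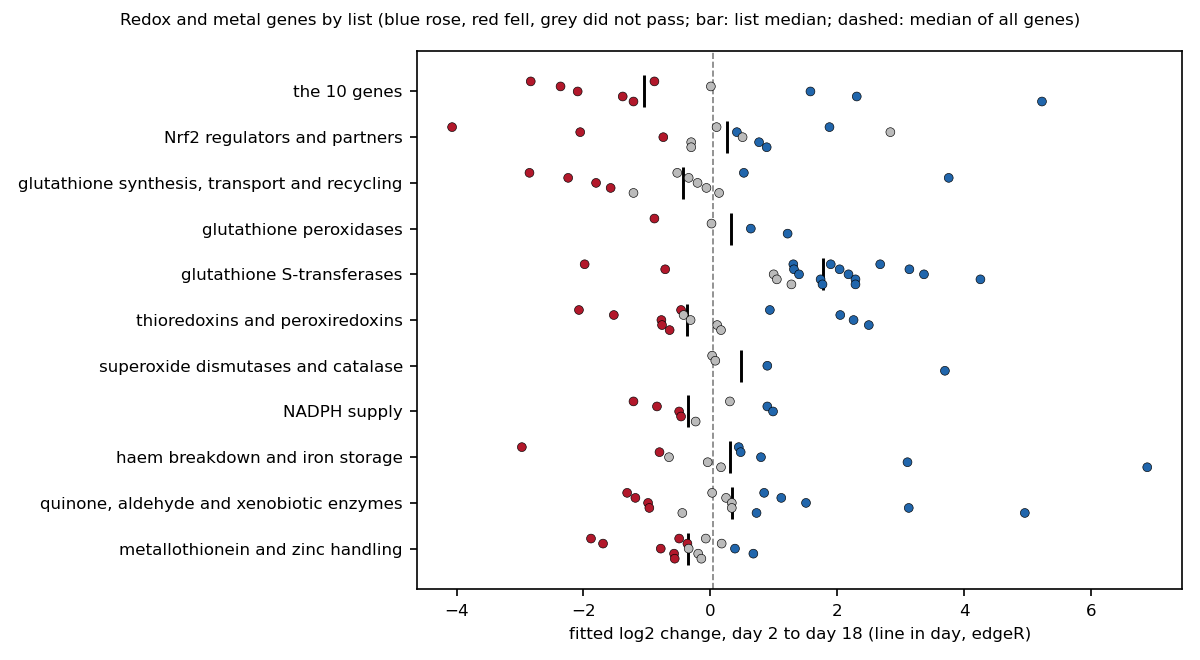
Fitted log2 change from day 2 to day 18 (horizontal axis, line in day by edgeR) of each tested gene, by list (vertical axis). Blue points rose and red points fell at an adjusted p under 0.05, grey points did not pass, black bars are list medians and the dashed line is the median of all genes, 0.05. The glutathione S-transferases have a median of 1.77 and the 10 genes one of -1.05.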

How the data were processed

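The authors aligned the reads with Bowtie (0.12.9 per the labels) to transcripts of NCBIM37, and RSEM (1.2.8 per the labels) gave values per gene. The values taken as counts are the estimated counts of RSEM as deposited, which the authors did not normalize and in which a read matching several transcripts is divided. The TPM values deposited by the authors take the effective length of the isoforms into account, so a change of isoforms can move TPM without moving counts. Reads of amplified RNA without molecular identifiers are not independent molecules.

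TPM of each profile were scaled to a common 75th percentile of the values above 0, after the study's upper-quartile approach. Expected counts were summed over the 3 profiles of a day and rounded (22470195 to 62009157 counts a day), and symbols came from the GENCODE annotation of NCBIM37 (37205 of 37991 identifiers). The 9 libraries were fitted by edgeR 4.0.16 in R 4.3.3 (normalization factors from the upper quartile, filterByExpr at minimum count 10, quasi-likelihood tests, Benjamini-Hochberg adjusted p under 0.05 over all genes) with a line in day, a natural spline with 3 degrees of freedom, or 3 stages of 3 days, which are different times and not replicates. Alternatives were DESeq2 1.42.0, limma 3.58.1 on log2 TPM with pseudocounts of 1 and 0.1, other factors and filters, the 27 profiles as separate samples, and each lane or day left out.

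The 10 genes and the lists were chosen with earlier results of these data known. Of each pathway list the text names the largest rise and fall among genes past the threshold with a mean of at least 5 TPM, and the gene with the highest mean. Genes at 0 counts are named too, and Hmox2, Keap1, Mafk, Mafg, Gpx4, Gpx8 and Mtf1 were named after their values were seen. Promoter windows were searched in Python 3.11.15.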

Additional observations from a re-analysis of the deposited data

How the results depend on the processing

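Of 814 recomputed values, 772 were unchanged, which means the same direction and side of the threshold for a tested change, a number within 1.5 times the reported one for a count of calls, and a shift smaller than the SD over the 9 days for a mean level. For the line in day, Hmox1, Nqo1, Gclc, Txnrd1, Srxn1, Gpx3, Mt1 and Mt2 kept theirs under all 22 alternatives each, and Gclm under 21, the exception being the fit without day 2 (log2 change -0.5, edgeR, adjusted p = 0.163). Depth limits Mt1 and Mt2 most, with 2430 and 2061 counts in all, and no alternative can stand in for a second culture.

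The fitted change of Nfe2l2 was near 0 and turned negative under 14 alternatives, none past the threshold. It was -0.00029 with the 27 profiles as separate samples and no replicate block, -0.0007 with the replicate block, -0.02 by DESeq2, -0.04 with TMM factors, -0.03 with every gene of at least 1 count, -0.01 with a mean of at least 1 TPM, -0.12 with library totals alone, and -0.07 by limma with either pseudocount on TPM as deposited. Leaving out a day gave -0.14 to 0.1, negative without day 2, 8 or 18, and leaving out a replicate number gave -0.01 to 0.01. The cause was not tested.

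The replicate numbers coincide with the lanes. Profiles with the same number did not deviate together (mean correlation 0.00568, from -0.0666 to 0.058, against -0.00284 for other numbers), so the numbers do not pair the samples. The fit of the 27 profiles with the replicate block treats lanes as samples. Of 14093 genes tested, it called 9561 between days 2 to 6 and 8 to 12 and 5419 between days 8 to 12 and 14 to 18. Of the 10 genes, 3 were then called in the later step, 1 higher (Gpx3, 1.38) and 2 lower (Nqo1, -0.46, and Txnrd1, -0.5), and Nfe2l2 passed in the spline (adjusted p = 0.00242) and the earlier step (-0.19, adjusted p = 0.0118, edgeR).

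With a day left out, the calls over all genes were 2142 to 6252 in the earlier step and 0 to 353 in the later step, the latter without day 12. The earlier rises among the 10 genes numbered 1 to 3, with 1 without day 10 and without day 12. In the later step, some changes turned sign with a day left out. Near 0 with all days, Hmox1 ran from -0.01 (without day 18, and -0.0019 without day 10) to 0.19. So did Gclc, from -0.21 to 0.1 (without day 8), and Mt1, from -0.03 (without day 8) to 0.18. Nqo1 was not near 0 with all days (-0.45 ± 0.28) and ran from -0.65 to 0.03. The latter was without day 8, when Nqo1 was at 26.3 TPM, so its later fall rests on that library. None of these changes passed the threshold. The cause was not tested.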
